A study of Homo sapiens with 12 samples.

Results

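RPS29 and RN7SL1 are a pair of genes on chromosome 14, the second lying inside the first, and were followed as 2 rows of a count table of 50006 genes in TK6, a human B lymphoblastoid cell line common in genotoxicity tests. RPS29 was selected on its measured level, chosen by lying above all controls in every treated group on the TMM-scaled values defined below, so its differences from control are given below as a description, with no test, and RN7SL1 was chosen because it lies in the span of RPS29. The cells were incubated for 24 h with 3-methylcholanthrene, a polycyclic aromatic hydrocarbon carcinogen, at 0 µg/mL (control), 0.0004 µg/mL (low), 0.04 µg/mL (medium) or 4 µg/mL (high), with 3 libraries in each group. RNA was enriched for poly(A) tails before sequencing. Whether libraries of the same group stem from different cultures is not stated in the labels. The spread behind each p-value is therefore that between these libraries and may be technical.

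RPS29 encodes ribosomal protein uS14, a small zinc-binding protein of the head of the small ribosomal subunit, and its mutation is a cause of Diamond-Blackfan anaemia. RN7SL1 encodes 7SL RNA, the scaffold of the signal recognition particle, which binds signal peptides as they leave the ribosome and brings the ribosome to the endoplasmic reticulum. RPS29 is transcribed by RNA polymerase II and its mRNA ends in a poly(A) tail. 7SL is transcribed by RNA polymerase III and its mature form is not polyadenylated in the way of an mRNA, so in a library made from poly(A) RNA its level also reflects how much RNA without such a tail was carried over.

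In the table's annotation (GRCh38.p14) RPS29 lay on the minus strand, from 49570988 to 49598710 of chromosome 14, a span of 27723 bases. Its 7472 exon bases fell into 5 blocks. The block farthest from the gene's start, at 49570988 to 49577853, held 6866 bases or 91.9% of the exon length, and the coding sequence of the long form ends within it, so that nearly all of it is untranslated. The block at 49586285 to 49586380 holds the start codon, and the block at 49598400 to 49598710 lies upstream of it and is untranslated. RN7SL1 lay on the plus strand at 49586580 to 49586878, in the intron between these last blocks. All of its 299 bases were inside the span of RPS29 and 0 were shared with an RPS29 exon. The nearest RPS29 exon block ended 199 bases away, and the next lay 11521 bases away on the other side. No exon base of RPS29 was covered by another gene of the table (0 bases), and RN7SL1 was the only gene (1) that overlapped its span. A read lying wholly within RN7SL1 thus touched no exon over which RPS29 was counted. A fragment that bridged the gap could touch both. How such fragments were counted is not stated in the labels.

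The sequences below show how the protein-coding part of RPS29 differs between its forms, a small part of the exon bases counted: they are the coding sequences of both RPS29 forms in GENCODE 29 (GRCh38, minus strand), with the exon-specific end in capitals: 162 bases are shared, and the forms differ in the last 9 or 42 bases.
RPS29, short form: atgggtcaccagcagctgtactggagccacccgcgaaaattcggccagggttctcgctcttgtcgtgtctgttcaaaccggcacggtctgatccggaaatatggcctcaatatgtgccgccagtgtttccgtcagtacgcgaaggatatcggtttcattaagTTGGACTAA
RPS29, long form: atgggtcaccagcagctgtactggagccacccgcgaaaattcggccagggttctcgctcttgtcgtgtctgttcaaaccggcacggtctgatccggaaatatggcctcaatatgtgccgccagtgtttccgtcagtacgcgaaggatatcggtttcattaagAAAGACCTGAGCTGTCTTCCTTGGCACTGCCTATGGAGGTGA
Because both RPS29 forms share their coding start and are counted in 1 row, the counts do not separate them. RN7SL1 and its paralogue RN7SL2 were identical at 295 bases in the same annotation, with 1 gap (98.3% identity), so reads of the 7SL genes are hard to place and the level of RN7SL1 is uncertain. RN7SL2 held 0 counts over the 12 libraries (a floor of 3 counts is 0.151 to 0.327 CPM, or counts per 1000000, depending on the library), and all of its 299 bases are covered by exons of LOC105378179. RN7SL3 held 6 counts over all libraries.

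Library totals ran from 9163368 to 19841387 counts, with the deepest pair in high. RPS29 held 1042 to 3072 counts per library and RN7SL1 17 to 312, so counting error alone is far larger for RN7SL1. Both genes passed the filter on low counts, as did 12030 genes in all. All 6 B cell markers examined were above 1 CPM in every library (summed level 1719 to 2625 CPM), and the 4 erythroid markers were at 0. Of 5 T and NK cell markers 1 was above 1 CPM in every library, with a summed level of 3.66 to 7.66 CPM. Of 4 myeloid markers 0 were, with a summed level of 0.583 to 4.34 CPM.

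RPS29 was lowest in control and highest at 4 µg/mL. On the TMM-scaled CPM used below (CPM corrected for library composition), the control libraries 1 to 3 stood at 106, 117 and 108, and the low libraries at 138, 130 and 125. The medium libraries stood at 138, 127 and 118, and the high libraries at 138, 159 and 170. No treated library overlapped the controls, but the lowest, medium replicate 3 at 118.4, lay only 1.01 times the highest control at 117.5. The mean was 111 ± 6.12 in the controls, was 131 ± 6.38 in low and 128 ± 9.77 in medium, and reached 156 ± 16.3 in high (SD, n = 3 each). The fitted log2 differences from control were 0.25 ± 0.10, 0.21 ± 0.10 and 0.50 ± 0.10 (SE) in low, medium and high, or folds of 1.19, 1.15 and 1.41. Bulk counts cannot tell more RNA per cell from a changed mix of cells.

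The pattern that chose RPS29 was shared by 60 of the 12030 genes tested (0.499%), while 45 genes (0.374%) lay below all controls in every treated group. For single groups, 3.53% of genes in low, 5.17% in medium and 3.66% in high had all 3 libraries above all controls, and 3.52%, 5.55% and 3.85% had all 3 below. At the edge of the rule, CLIP1 was just inside, with its lowest treated library at 1.001 times its highest control, and CCDC28B just outside at 0.998 times. The scale decided this for medium. On the deposited CPM, without a correction for composition, medium replicate 3 stood at 116 and control replicate 2 at 121, so only 2 of 3 medium libraries were above all controls (all 3 were for 3.26% of genes), while in low and high 3 of 3 were. On that scale RPS29 is not among the 26 genes (0.216%) above all controls in all groups.

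Differences among the treated groups were not used to choose RPS29 and were tested. High exceeded medium by 0.29 ± 0.10 and low by 0.25 ± 0.10 (log2, SE), with 95% intervals from 0.07 to 0.50 and 0.03 to 0.47. Neither passed in edgeR's quasi-likelihood test over 12030 genes (adjusted p = 0.9998 and 0.9999, unadjusted p = 0.0136 and 0.0275), where 0% of genes were called. Medium differed from low by -0.04 ± 0.10, with an interval from -0.26 to 0.18 (adjusted p = 0.9999). In ascending order of mean level the groups ran control, medium, low and high, and medium and low did not differ beyond their spread although their concentrations are far apart. A slope over the treated groups gave 0.13 ± 0.05 log2 units per concentration step (95% interval 0.01 to 0.24, edgeR adjusted p = 0.999997, unadjusted p = 0.0349), with 0% of genes called. A rise of RPS29 with dose among the treated libraries was thus not established.

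**Figure D1:**
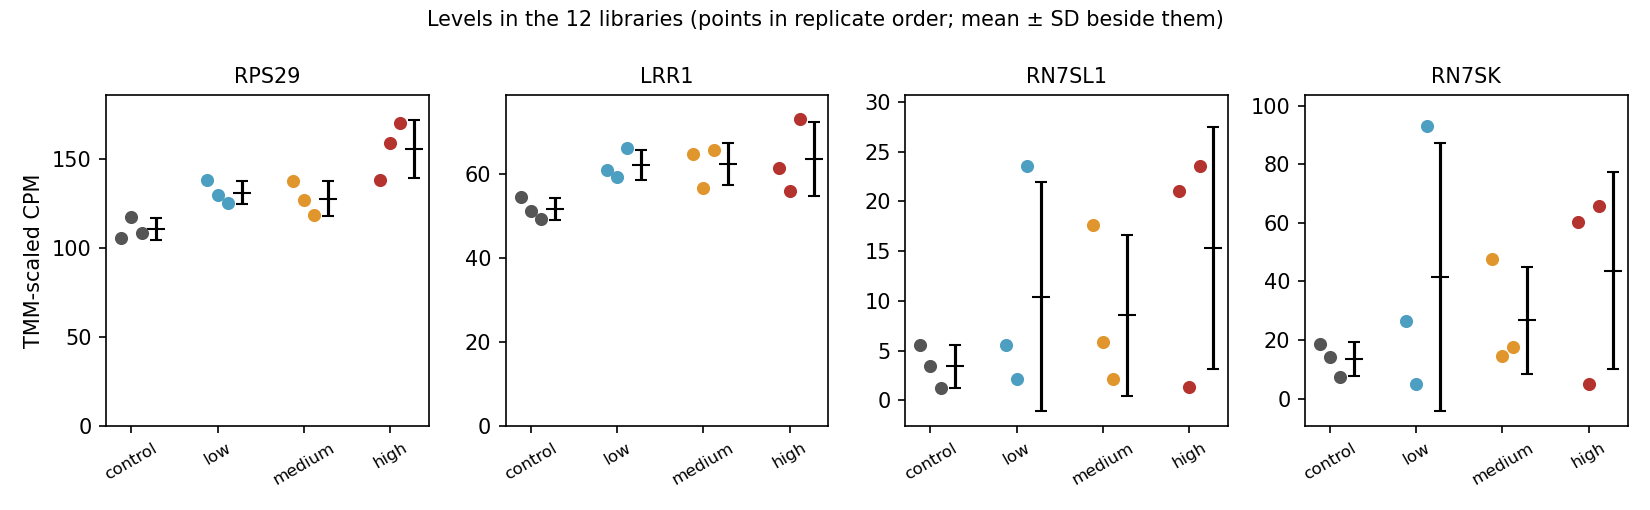
TMM-scaled CPM of RPS29, its neighbour LRR1, RN7SL1 and the 7SK RNA gene RN7SK in the 12 libraries by group, with mean ± SD beside the points. RPS29 treated libraries (118 to 170) lie above the controls (106 to 117), while RN7SL1 is high in 4 treated libraries and near the controls in the other 5.

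RN7SL1 varied far more, and between libraries of the same group. The control libraries 1 to 3 stood at 5.58, 3.49 and 1.25 TMM-scaled CPM, and the low libraries at 5.53, 2.11 and 23.6. The medium libraries stood at 17.6, 5.82 and 2.18, and the high libraries at 21.1, 1.30 and 23.6. In 4 treated libraries, low replicate 3, medium replicate 1 and high replicates 1 and 3, RN7SL1 was at 17.6 or above, in the other 8 libraries it was at 5.82 or below, and every treated group overlapped the controls. The mean was 3.44 ± 2.17 in the controls, 10.4 ± 11.5 in low and 8.55 ± 8.09 in medium, and reached 15.3 ± 12.2 in high (SD, n = 3). The log2 differences from control were 1.61 ± 1.10, 1.32 ± 1.10 and 2.17 ± 1.08 (SE), and none passed (edgeR adjusted p = 0.911, 0.998 and 0.810). With a single library left out, low ran from 0.18, without low replicate 3, to 2.16, medium from 0.26, without medium replicate 1, to 1.87, and high from 1.71 to 2.72. The treated groups did not differ from each other either, by 0.84 ± 1.04 for high against medium, 0.55 ± 1.04 for high against low and -0.29 ± 1.05 for medium against low (adjusted p = 0.9998, 0.9999 and 0.9999). With 1 library left out these ran from 0.38, without medium replicate 3, to 1.90, without medium replicate 1, from 0.0709, without low replicate 2, to 1.98, without low replicate 3, and from -1.35, without medium replicate 1, to 1.15, without low replicate 3.

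Among other RNAs without poly(A) tails, RN7SK and RMRP stood high and low in the same libraries as RN7SL1. RN7SK, the 7SK RNA that holds the elongation factor P-TEFb inactive, measured 18.8, 14.4 and 7.21 TMM-scaled CPM in the controls. It measured 26.3, 5.06 and 92.9 in low, 47.7, 14.7 and 17.8 in medium, and 60.1, 5.03 and 65.8 in high. The 4 libraries rich in RN7SL1 were also the 4 highest in RN7SK. RMRP, the RNA of the ribonuclease MRP, ranged from 0.0519 in high replicate 2 to 29.1 in low replicate 3. RPPH1, the RNA of ribonuclease P, had 0 to 10 counts per library and was below the filter. Its highest count, 10, was in medium replicate 2 (0.758 CPM), which was not among the 4 libraries rich in RN7SL1. Relative to depth RPPH1 was highest in low replicate 3 (8 counts, 0.861 CPM), which was among them. Its level is uncertain because the table holds a copy of it. Of 15 listed RNAs of this kind 4 were tested and 6 had 0 counts in every library. RN7SK differed from control by 1.70 ± 0.97 and RMRP by 2.03 ± 1.29 in high, and neither passed (edgeR adjusted p = 0.810 each). Over group-centred CPM the correlation of RN7SK with RN7SL1 was r = 0.968 (exact permutation p = 0.00231, adjusted 0.00926, rho = 0.979 with p = 0.00617, adjusted 0.0247, 4 relations, 12 libraries). Without the pair of libraries farthest from the median of group-centred RN7SL1, low replicate 3 and high replicate 2, r was 0.916 (exact permutation p = 0.0208). Both RNAs share library and depth.

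Over the 12 libraries no relation of RPS29 with RN7SL1 within groups was detected. In high replicate 2, RN7SL1 stood at 1.30, the lowest of its group, and RPS29 at 159, between the 138 and 170 of the other high libraries. Low replicate 3 had RN7SL1 at 23.6, the highest of its group, and RPS29 at 125, the lowest of its group. Control replicate 1 likewise had the highest RN7SL1 of its group, 5.58, and the lowest RPS29, 106. In medium both ran in the same order, with RN7SL1 at 17.6, 5.82 and 2.18 and RPS29 at 138, 127 and 118. High replicate 3 was the highest of its group in both. Among the treated libraries, RPS29 spanned 125 to 170 in the 4 rich in RN7SL1 and 118 to 159 in the other 5, so the ranges overlapped. No correlation over the 9 treated libraries is given, because RN7SL1 split them into separate sets of 4 and 5.

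With the group held constant, RPS29 changed by 0.0042 ± 0.022 log2 units per doubling of RN7SL1 (SE), and its 95% interval spanned -0.044 to 0.053 (edgeR adjusted p = 0.902). In the same fit 4635 of 12029 genes, 38.5%, were called, 2339 (19.4%) up and 2296 (19.1%) down. A relation with RN7SL1 was thus common among genes, and RPS29 was not among the genes called. On RN7SK, which lies on another chromosome, the slope was -0.00090 ± 0.023 (adjusted p = 0.978; 44.9% of genes called). The group-centred CPM of RPS29 and RN7SL1 had r = -0.011 (exact permutation p = 0.982, adjusted 0.982) and rho = 0.049 (p = 0.913, adjusted 0.938), 12 libraries, and r ran from -0.26 to 0.29 with 1 library left out. That the correlation lay near 0 rested on the same low replicate 3 and high replicate 2. Without both, r was 0.622 and rho 0.612 over 10 libraries (exact permutation p = 0.0694 and 0.0764), and the slope 0.051 ± 0.038 (adjusted p = 0.528).

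**Figure D2:**
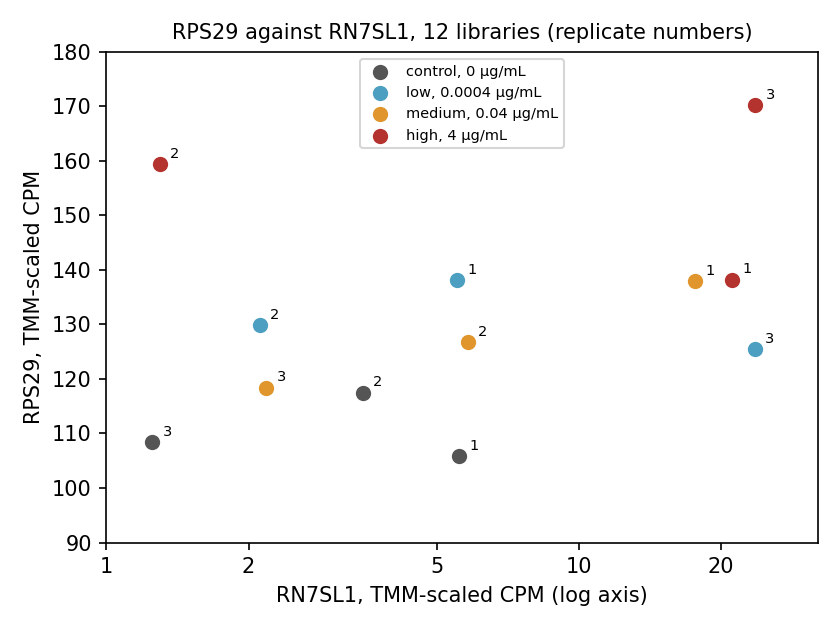
RPS29 against RN7SL1 in the 12 libraries, both as TMM-scaled CPM with a log axis for RN7SL1; colours are groups and digits are replicate numbers. High replicate 2 (RN7SL1 1.30, RPS29 159) and low replicate 3 (RN7SL1 23.6, RPS29 125) stand away from a common line.

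As a further description, the group differences can be set side by side on the linear scale. RPS29 was above control by 20.5, 17.1 and 45.3 TMM-scaled CPM in low, medium and high, and RN7SL1 by 6.96, 5.11 and 11.9. With every RN7SL1 count subtracted from RPS29, the controls would stand at 107 ± 6.89 and the treated groups, in ascending dose, at 121 ± 16.5, 119 ± 2.55 and 141 ± 21.1 (SD, n = 3). Low replicate 3 would then stand at 102, below control replicate 2 at 114, so low would no longer lie above all controls. The fitted differences would be 0.17, 0.15 and 0.39, and the slope on RN7SL1 -0.054 ± 0.025 (edgeR adjusted p = 0.109). That slope cannot test a relation, because subtracting RN7SL1 counts lowers it by construction. With RN7SL1 itself as a covariate the differences were 0.24, 0.20 and 0.49, and without the 4 libraries rich in it they were 0.28, 0.15 and 0.53, the last from high replicate 2 alone, whose spread is assumed to be that of the other groups. These counts measure assigned reads only. RN7SL1 reads that were dropped as ambiguous are in neither row, and whether RN7SL1 reads enter the RPS29 row was not tested.

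Most other genes of the small ribosomal subunit fell with rising RN7SL1 within groups; their difference from RPS29 was not tested. Of 32 listed genes besides RPS29, 29 were tested, and 26 of them fell and 0 rose (edgeR, background 19.1% of genes down), with a median of -0.17 log2 units per doubling. RPSA, which encodes uS2, fell by 0.25 ± 0.02 (adjusted p = 0.000128) and RPS3, a protein at the mRNA entry channel, by 0.08 ± 0.02 (adjusted p = 0.00495). RPS6, the target of S6 kinase, fell by 0.18 ± 0.02 (adjusted p = 0.000327) and FAU, which encodes eS30 fused to a ubiquitin-like protein, by 0.14 ± 0.02 (adjusted p = 0.00143). The genes of small proteins did so as well: RPS27 fell by 0.32 ± 0.03, RPS28 by 0.36 ± 0.05 and RPS21 by 0.25 ± 0.05 (SE; adjusted p = 0.00023, 0.000522 and 0.00224). RPS2, at 7.03 TMM-scaled CPM on average, fell by 0.32 ± 0.12 (adjusted p = 0.0484), and its level is uncertain because the table holds a copy of it. Among the 3 that did not pass were RPS9 and RPS10, at 1.14 and 1.13 TMM-scaled CPM on average and with slopes of 0.05 ± 0.13 and 0.01 ± 0.11 (named after their values were seen). Without the 4 libraries rich in RN7SL1 0 of 29 were called, with 0 of all genes called.

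Against control in high, 28 of the same 29 genes lay below control and 1 above, with 0 called (0% of all genes). Their median log2 difference was -0.18, beside a median of 0.00 over all genes tested. Without control replicate 3, 19 of these genes lay below control. RPSA stood at 1341 ± 244 TMM-scaled CPM in control and 1158 ± 536 in high, and RPS3 at 1383 ± 52.2 and 1326 ± 187 (SD, n = 3). RPS29 was the only small-subunit gene (1) with all high libraries above all controls, the pattern it was chosen for. Without the 4 libraries rich in RN7SL1, a choice made after seeing the data, 4 of the 29 were below control, but high is then high replicate 2 alone, which had the highest RPSA of its group (1772 TMM-scaled CPM, beside 918 and 783). In low and medium the medians were -0.05 and -0.05, with 10 and 11 of 29 above control. Of 47 large-subunit genes 46 were tested, and 40 fell with RN7SL1 and 0 rose (edgeR, background 19.1% of genes down and 19.4% up). Their median in high was -0.14, with 0 called (0% of all genes). Levels are not compared between these genes, since 91.9% of the exon length of RPS29 is the single long end block.

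**Figure D3:**
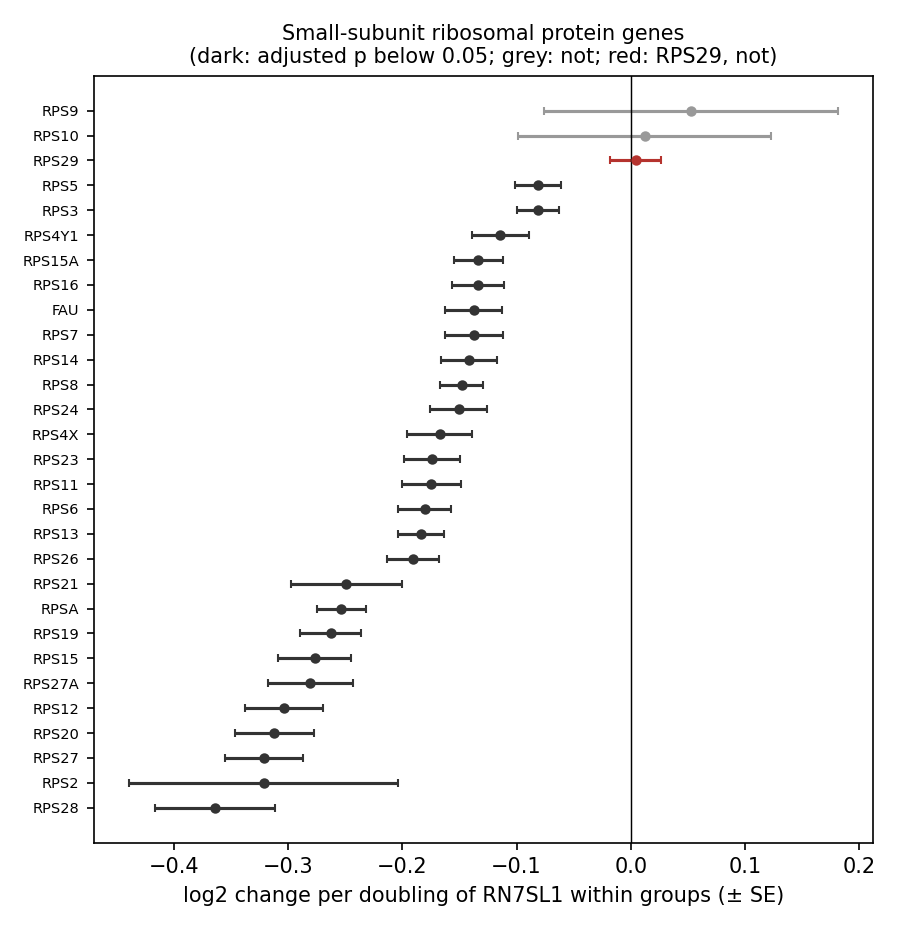
Change per doubling of RN7SL1 within groups (log2 ± SE) for 29 of the 30 tested small-subunit ribosomal protein genes, ordered by value. RPS29 (red) lies at 0.0042, beside 26 genes in black that fell and passed the test and 2 in grey that did not pass.

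Protein partners of 7SL showed no common movement. All 8 genes of the signal recognition particle and its receptor were tested. Against control 0 were called in any group, where 0% of all genes were called. Their median in high was 0.05 (4 above, 4 below). With RN7SL1 within groups 3 rose and 2 fell (38.5% of all genes were called in either direction). SRP14 and SRP9, whose proteins bind the Alu domain of 7SL together, fell by 0.24 ± 0.03 and 0.20 ± 0.03 per doubling (adjusted p = 0.000264 and 0.000482). SRP19, which binds the other end of 7SL and prepares it for SRP54, rose by 0.12 ± 0.03 (adjusted p = 0.00588), SRP68 by 0.05 ± 0.02 (0.0347) and SRPRA, the receptor subunit that meets SRP54, by 0.07 ± 0.02 (0.0287). SRP54, the signal-peptide-binding GTPase, was at -0.03 ± 0.02, SRP72, the partner of SRP68, at 0.04 ± 0.02 and SRPRB, the membrane anchor of the receptor, at -0.04 ± 0.02, none passing (adjusted p = 0.228, 0.0644 and 0.115).

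LRR1, the gene next to RPS29, showed the same placing against the controls. It encodes the substrate receptor of a ubiquitin ligase that unloads the replicative helicase, and starts on the plus strand 229 bases from the distal start of RPS29, in the opposite direction. LRR1 stood at 51.6 ± 2.60 TMM-scaled CPM in the controls and, in ascending dose, at 62.1 ± 3.62, 62.3 ± 5.02 and 63.5 ± 8.82 (SD, n = 3), with 3 of 3 libraries of every treated group above all controls. Its lowest treated library, at 55.9, was 1.03 times its highest control at 54.4, and on the deposited CPM only 2 of 3 high libraries were above. The differences from control were 0.27 ± 0.11, 0.27 ± 0.11 and 0.30 ± 0.11 (log2, SE), none passing (edgeR adjusted p = 0.911, 0.998 and 0.810). Without high replicate 3 the difference in high was 0.19, and without the 4 libraries rich in RN7SL1 it was 0.12, from high replicate 2 alone. Its slope on RN7SL1 was 0.05 ± 0.02 (adjusted p = 0.121), which passed without medium replicate 3 (adjusted p = 0.0385), and over group-centred CPM the 2 had r = 0.684 and rho = 0.636 (exact permutation p = 0.0679 and 0.0787, adjusted 0.136 and 0.157). Without low replicate 3 and high replicate 2, r was 0.371 (exact permutation p = 0.444), so the value rested on them. LRR1 ranked 156 of 12029 genes in likeness to RPS29 across the 12 libraries (r = 0.599). This r was not centred on group means, so it includes the difference from control for which RPS29 was chosen.

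The stretch between the distal start of RPS29 and the start of LRR1 is shown because it is all the sequence that separates the spans of these neighbours. It is given on the strand of RPS29 at chr14:49598711-49598939 (GRCh38.p14, RefSeq promoter table).
Between RPS29 and LRR1: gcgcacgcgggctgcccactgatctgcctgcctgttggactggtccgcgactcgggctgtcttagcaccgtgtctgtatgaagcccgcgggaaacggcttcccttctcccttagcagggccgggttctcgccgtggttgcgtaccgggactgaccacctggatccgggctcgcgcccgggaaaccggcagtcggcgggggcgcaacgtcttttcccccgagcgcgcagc
Neither TATAAA nor CCAAT, searched on both strands, occurs in it, nor in the 300-base promoter window at this distal start of RPS29. Of 35116 promoter windows of that length, 11.5% and 34.6% hold them. The block with the start codon, at 49586285 to 49586380, lies farther inside the gene, and the sequence upstream of that block was not searched.

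Farther along, the differences from control varied in sign. RPL36AL, a large-subunit ribosomal protein gene 19819 bases from RPS29, stood at 139 ± 3.68 TMM-scaled CPM in control and 153 ± 4.41, 151 ± 5.24 and 149 ± 14.3 in low, medium and high (SD, n = 3). Its differences were 0.13 ± 0.09, 0.12 ± 0.09 and 0.10 ± 0.09 (log2, SE). Its low and medium libraries (lowest 147 and 145) lay above its highest control at 143, but its lowest high library, at 133, did not. MGAT2, a Golgi N-glycan transferase, was at -0.30 ± 0.20 in high and DNAAF2, a dynein arm assembly factor, at 0.05 ± 0.17. POLE2, a subunit of DNA polymerase epsilon, was at 0.33 ± 0.13 in high. Its high libraries (lowest 23.5) lay above its highest control at 21.1, but its lowest medium library, at 18.0, did not. On the RN7SL1 slope 38.5% of all genes were called, and of the 5 tested neighbours only MGAT2 passed. It fell by 0.14 ± 0.02 per doubling (edgeR adjusted p = 0.00135), while RPL36AL was at -0.01 ± 0.02 (adjusted p = 0.678). Against control none of the 5 passed in any group (edgeR adjusted p from 0.810 to 0.998), where 0% of all genes were called. LOC107984701 held 4 counts over all libraries and KLHDC1 0 (the floor of 3 counts per library), so neither was tested. Of the 28 other genes within 1 Mb of RPS29 (RN7SL1 aside) 16 were tested, and the median in high was -0.02. Against control 0 of them were called in any group (0% of all genes). In low, medium and high 2, 3 and 2 of the 16, LRR1 among them, lay above all controls (3.53%, 5.17% and 3.66% of all genes). Below all controls lay 0, 1 and 1 (3.52%, 5.55% and 3.85% of all genes).

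By Pearson's r of log2 TMM-scaled CPM over the 12 libraries, the 5 tested genes most like RPS29 were MFSD14CP (0.850), LOC105369783 (0.832), COQ2 (0.822), PDE4DIP (0.819) and LTBP4 (0.818). COQ2 encodes a prenyltransferase of coenzyme Q synthesis, PDE4DIP a protein of the centrosome and Golgi, and LTBP4 a binding protein of latent TGF-beta. MFSD14CP stood at 7.46 ± 0.572 TMM-scaled CPM in control and 11.4 ± 2.60 in high (SD, n = 3). PDE4DIP stood at 21.9 ± 1.12 TMM-scaled CPM in the controls and, in ascending dose, at 25.6 ± 2.12, 24.8 ± 0.324 and 27.99 ± 1.72 (SD, n = 3). RN7SL1 ranked 1637 of 12029 in likeness to RPS29 (r = 0.348). The 5 genes most like RN7SL1 were DSN1 (0.972), DDX46 (0.967), SELPLG (0.966), ZNF785 (0.963) and LOC124909410 (0.961). DSN1 encodes a kinetochore protein, DDX46 a helicase of the spliceosome and SELPLG a selectin ligand of leukocytes. These genes share libraries and depth, and were picked as the highest of many. The levels were not centred on group means. Likeness to RPS29 therefore includes the difference from control for which RPS29 was chosen, and is no separate support for it.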

How the data were processed

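The members and lists were chosen with earlier results of these data known. Per the submitters' processing notes, reads were handled with fastp 0.23.4, HISAT2 2.2.1, featureCounts 2.0.6 and MultiQC 1.27 on GRCh38.p14. Options and the use of strand are not given in those notes. The authors deposited raw counts per gene for 12 libraries and, per library, CPM, which are these counts per 1000000 in the library (no correction for composition).

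Genes were kept with filterByExpr (12030 genes), scaled by TMM and fitted with edgeR 4.0.16 (quasi-likelihood test, R 4.3.3), with the 12 libraries fitted together (8 residual degrees of freedom) and a Benjamini-Hochberg threshold of 0.05. Slopes used the log2 CPM of RN7SL1 or RN7SK (0.5 counts added), centred on group means, as a covariate fitted over all other genes. The models were tested on simulated data. The values of 1 small-subunit gene and the sequence of RN7SL1 are not reported here. Genes were named by a fixed rule: both members, listed RNAs without poly(A) tails, SRP and receptor genes, 5 set small-subunit genes and the 3 highest, tested genes within 100 kb, and the 5 genes most like each member. Alternatives covered DESeq2 1.42.0, limma voom 3.58.1, other scaling and filters, subtraction of RN7SL1 counts, covariates, a replicate block and each library left out. The labels give every group replicates 1 to 3 but tie these numbers to no shared culture or day.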

Additional observations from a re-analysis of the deposited data

How the results depend on the processing

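The differences of RPS29 from control moved by less than the spread within groups (0.11 log2 units) in 24, 24 and 24 alternatives for low, medium and high; their sign was set by the choice of RPS29. Tests of RPS29 between treated groups and its concentration slope passed in none (smallest adjusted p = 0.646). High against medium ran from 0.22 to 0.37, high against low from 0.19 to 0.33, medium against low from -0.0928 to 0.0143 and the concentration slope from 0.0839 to 0.16 with 1 library left out. The RPS29 slope on RN7SL1 ran from -0.0124 to 0.0193 with 1 library left out, and was -0.0084 with no count filter and -0.0535 with RN7SL1 counts subtracted. Its slope on RN7SK ran from -0.0191 to 0.0147 with 1 library left out, and was 0.0054 with the filter of CPM above 5 in 3 libraries, 0.0156 with the replicate block, 0.0228 without the 4 libraries rich in RN7SL1 and 0.0503 without low replicate 3 and high replicate 2. None of these slopes passed. Subtracting RN7SL1 counts lowers the slope on RN7SL1 by construction, and the cause of the other sign changes was not tested. The correlation of RPS29 with RN7SL1 was 0.097 on log2 CPM, 0.026 on TMM-scaled CPM and 0.622 without the 2 farthest libraries, and ran from -0.256 to 0.289 with 1 library left out.

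For RN7SL1, leaving out the 4 libraries rich in it, all treated and chosen by its own level, lowers the treated groups by construction and leaves high as high replicate 2 alone. It gave -1.38 for high against control, -1.63 for high against medium, -1.55 for high against low and 0.0770 for medium against low, which was 0.16 with RN7SK as a covariate and ran from -1.35 to 1.15 with 1 library left out. In that setting RN7SK and RMRP in high turned to -1.40 and -5.73, and RMRP was -0.50 in voom. Genes called on the RN7SL1 slope ranged from 2110, without high replicate 2, to 5239 with 1 library left out, and were 0 without the 4 libraries, where fewer libraries and a narrower range of RN7SL1 remain. Where edgeR called 0 genes in the contrasts and the concentration slope (195 to 375 at an unadjusted p under 0.05), at most 7 were called in any alternative, DESeq2 calling 2 to 5. With the replicate block the RPS29 slope on RN7SL1 was 0.0147, RPS29 in high 0.50, 3225 genes were called on RN7SL1, and no call on RPS29 or RN7SL1 changed; deviations of same-numbered libraries correlated from -0.38 to 0.58, and 5 of 12 libraries correlated best with their own number. RPS29 medium libraries above all controls numbered 2 on the deposited CPM. The planned correlation over the 9 treated libraries is not reported because RN7SL1 split them. RN7SL1 counts of 17 to 78 in the 8 libraries poor in it limit the precision of its fold changes.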
